A study of Mus musculus with 6 samples.

Results

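Oxidative phosphorylation subunits were taken as every row of the gene tables whose symbol names a nuclear subunit gene of complexes I to V (symbols starting with Ndufa, Ndufb, Ndufc, Ndufs, Ndufv, Uqcr, Cox4 to Cox8 or Atp5, and Sdha to Sdhd) and, counted apart, every respiratory gene of the mitochondrial genome. This gave 94 nuclear and 13 mitochondrial members, 107 of 32285 genes. By symbol, 47 nuclear members belonged to complex I, 4 to complex II, 8 to complex III, 18 to complex IV and 17 to complex V. Complex I includes here 8 assembly factors (Ndufaf) and Ndufa4, which is known as a complex IV subunit.

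The respiratory chain sits in the inner mitochondrial membrane. Complexes I and II pass electrons to ubiquinone, complex III passes them to cytochrome c, complex IV passes them to oxygen, and complex V makes ATP from the proton gradient. Complex II is made from nuclear genes alone, whereas the other complexes combine nuclear subunits with subunits made inside the mitochondrion. Circulating neutrophils are known for relying largely on glycolysis.

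Cells came from mice labelled Cysltr1 KO and from BALB/c controls labelled WT, all carrying tumors of EMT6, a mouse mammary carcinoma line, and were profiled with droplet single-cell RNA sequencing. There were 6 libraries, 1 for each genotype in bone marrow, spleen and tumor, each made from a pool of 3 mice. The strain background of the KO mice and the ages were not given in the sources used here, nor whether marrow, spleen and tumor were taken from the same animals, so tissues were not used as replicates. Cysltr1 encodes a receptor for cysteinyl leukotrienes. Marrow had been enriched for hematopoietic progenitors, and spleen and tumor for cells carrying CD45. With 1 library per tissue and genotype there was no replicate check, so no test was run. Every interval below is a 95% interval that covers counting error only.

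Cells kept per library numbered 6394 and 5257 in the marrow libraries labelled KO and WT, 8257 and 8962 in spleen, and 6341 and 8599 in tumor. Median UMIs per kept barcode ranged between 2625 and 13071, and any 2 libraries shared 46 to 128 barcodes, at most 1.43% of the smaller library. Cysltr1 transcripts went against the labels in marrow, at 24.4 CPM in the library labelled KO against 4.83 CPM in the library labelled WT, and in spleen, at 33.8 against 7.04 CPM. In tumor they were at 7.59 CPM in the library labelled KO and 9.93 CPM in the library labelled WT. The libraries are therefore named by their labels throughout. Barcodes were assigned to cell types by marker gates, and 48.2% of kept barcodes of the tumor library labelled KO and 56.8% of those of the tumor library labelled WT passed no gate, where Ptprc, the gene of CD45, was at 35.8 and 27.4 CPM. In 17 gates with at least 50 barcodes, 48 library and gate sums were formed, as counts of unique molecules (UMIs) per 1000000 UMIs of the gate (CPM). In each gate at least 6 of the markers used were detected, except for plasma cells, where all 5 were. A UMI tags 1 end of a transcript, so levels of different genes were compared without division by length.

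Promoters of 75 of the 94 nuclear members were present in RefSeq's promoter table (GRCm38.p6), as 80 windows that run from 250 bases before to 50 bases after a gene start. Sequences are shown for 3 members, a housekeeping isoform, a tissue isoform and the member that differed most often between the labelled genotypes. Cox6a1 (chr5:115348909-115349208, minus strand) is the widely expressed form of subunit VIa of cytochrome c oxidase, Cox7a1 (chr7:30183921-30184220, plus strand) is a contractile tissue form of subunit VIIa, and Ndufa3 (chr7:3617123-3617422, plus strand) is an accessory subunit of complex I. Capitals mark a match on either strand to the NRF1 palindrome (GCGCA followed directly by its own reverse complement), CCGGAAG (ETS factors), AAGATGGC (YY1) or TATAAA (the TATA box).
Cox6a1: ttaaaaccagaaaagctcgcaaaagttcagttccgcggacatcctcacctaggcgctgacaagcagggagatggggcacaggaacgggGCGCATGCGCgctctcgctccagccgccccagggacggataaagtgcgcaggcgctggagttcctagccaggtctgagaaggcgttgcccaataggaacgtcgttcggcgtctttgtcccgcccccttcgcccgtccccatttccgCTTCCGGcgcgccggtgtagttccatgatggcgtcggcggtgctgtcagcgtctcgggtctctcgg
Cox7a1: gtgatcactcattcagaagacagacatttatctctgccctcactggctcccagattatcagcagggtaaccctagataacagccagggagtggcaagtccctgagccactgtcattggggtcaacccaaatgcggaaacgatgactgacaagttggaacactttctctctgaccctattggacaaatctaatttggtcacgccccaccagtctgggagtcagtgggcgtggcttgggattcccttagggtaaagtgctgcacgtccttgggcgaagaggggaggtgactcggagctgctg
Ndufa3: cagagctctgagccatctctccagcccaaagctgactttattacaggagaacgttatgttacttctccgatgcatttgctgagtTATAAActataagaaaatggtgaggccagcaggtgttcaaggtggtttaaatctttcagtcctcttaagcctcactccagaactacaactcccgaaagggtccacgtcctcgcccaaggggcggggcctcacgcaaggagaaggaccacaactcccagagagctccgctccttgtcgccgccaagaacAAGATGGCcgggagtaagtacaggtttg
The Cox6a1 window held the NRF1 and ETS letters, the Ndufa3 window held the YY1 letters within the 50 bases after the gene start and TATAAA farther upstream, and the Cox7a1 window held none of these 4 strings. Over all windows, the NRF1 letters were in 8.75% of the 80 windows of members and 0.971% of the 32851 windows of all genes. The ETS letters were in 23.8% of member windows and 8.86% of all windows, and the YY1 letters in 12.5% and 2.75%. The ETS and YY1 strings can overlap by their shared AAG. TATAAA was in 11.25% of member windows and 13.6% of all windows. A match is a description of the letters only.

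Across cell types, nuclear subunit transcripts were most abundant in erythroid cells and granulocyte-monocyte progenitors and least abundant in mature neutrophils of the spleen. Their sum reached 39465 CPM in erythroid cells of the marrow library labelled KO and 39364 CPM in that labelled WT, and 37112 and 37606 CPM in granulocyte-monocyte progenitors. It was 7688 CPM in mature neutrophils of the spleen library labelled KO (95% interval 7587 to 7790) and 7122 CPM in those labelled WT (7055 to 7189). Of the 86 members with a median of at least 10 CPM over the gates, 36 had their highest level in erythroid cells, 21 in granulocyte-monocyte progenitors and 10 in megakaryocytes. Stem and progenitor cells, at 25773 and 25469 CPM in the libraries labelled KO and WT, lay below the granulocyte-monocyte progenitors.

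**Figure D1:**
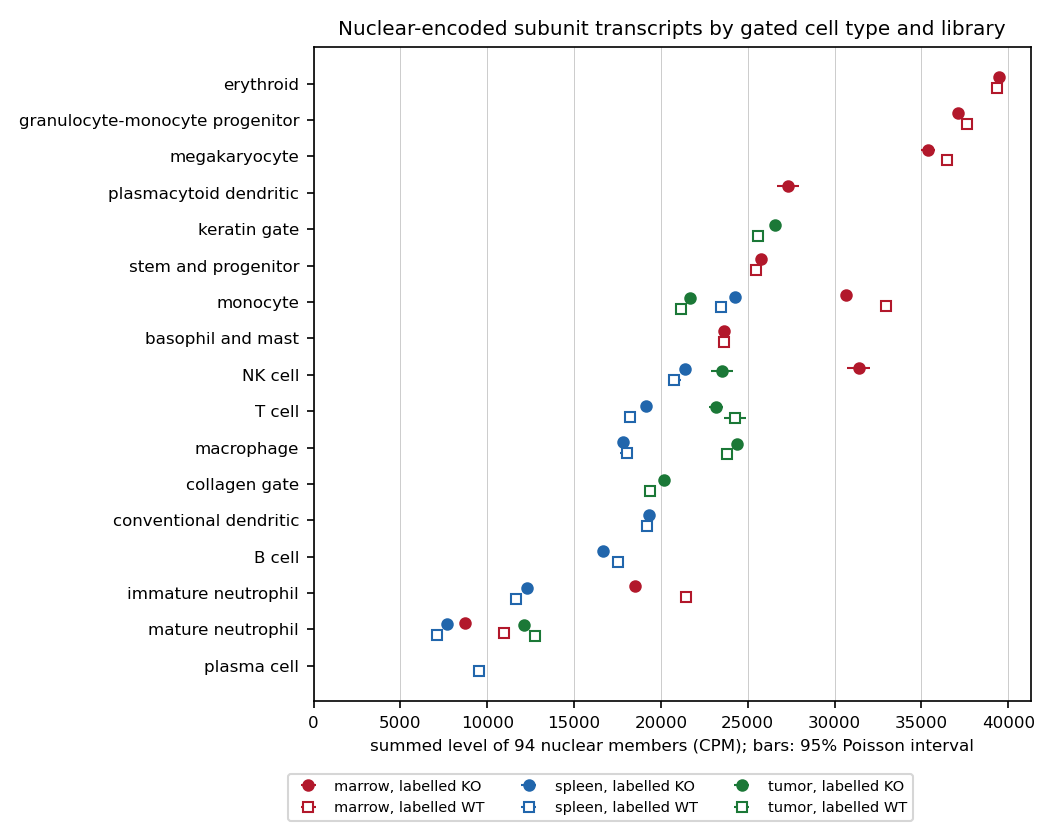
Summed level of the 94 nuclear members (CPM, x axis) by gated cell type (y axis, ordered by median), with filled circles for libraries labelled KO, open squares for libraries labelled WT, colour for tissue and bars for 95% Poisson intervals. Erythroid cells reach 39465 CPM, whereas mature neutrophils lie between 7122 and 12760 CPM.

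Among lymphoid and stromal gates the range was narrower, with NK cells of the marrow library labelled KO highest, at 31387 CPM (54 barcodes). NK cells of the spleen held 21377 CPM in the library labelled KO and 20778 CPM in that labelled WT. Those of the tumor library labelled KO held 23500.5 CPM. T cells of the spleen held 19147 CPM in the library labelled KO and 18238 CPM in that labelled WT, and those of the tumor 23167 and 24263 CPM. B cells of the spleen held 16675 and 17518 CPM. In the tumor, the gate set by keratins held 26559 CPM in the library labelled KO and 25596 CPM in that labelled WT, and the gate set by collagens 20174 and 19346 CPM. Plasma cells of the spleen library labelled WT stood low, at 9494 CPM, the only library in which that gate reached 50 barcodes.

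Each complex took a bounded share of the nuclear sum. Over the 48 sums, complex V took 28.8% to 36.5% of nuclear subunit UMIs, complex I 26.8% to 37.4%, complex IV 20.04% to 33.0%, complex III 8.04% to 9.89% and complex II 1.47% to 3.04%. The most abundant member of each complex, by its median over the gates, was Cox4i1 for complex IV at 1168 CPM, Atp5g3, a c-ring gene of complex V, at 817 CPM, Uqcrh, the hinge protein of complex III, at 531 CPM, Ndufa4 under complex I at 440 CPM and Sdhb, the iron-sulfur subunit of complex II, at 156 CPM. Cox4i1 had a range of 356 CPM in mature neutrophils of the spleen library labelled KO to 2024 CPM in erythroid cells. Of the mitochondrial sum, the 3 complex IV genes took 48.0% to 68.4%, the 7 complex I genes 11.2% to 22.0%, mt-Cytb of complex III 7.40% to 14.9% and the 2 complex V genes 10.9% to 16.8%.

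Alternative isoforms showed levels unlike those of their housekeeping partners. Cox6a2, the striated muscle form of subunit VIa, was at 1346 CPM (363 UMIs) in plasmacytoid dendritic cells of the marrow library labelled KO, and at most 13.9 CPM in any other gate. Cox6a2 stood among the markers listed for that cell type but took no part in gating, and all 6 markers that did were detected in it. Cox6b2, known as a testis form of subunit VIb, was at 339 and 301 CPM in erythroid cells of the marrow libraries labelled KO and WT and at 104 and 96.7 CPM in stem and progenitor cells, against a median of 3.57 CPM over the gates.
Cox4i2, known as a hypoxia-responsive and lung form of subunit IV, was at 13.9 and 13.5 CPM in stem and progenitor cells of the marrow libraries labelled KO and WT, and at 8.88 CPM in macrophages of the tumor library labelled KO. Cox7a1 was at most 8.58 CPM, in the same macrophages, while Cox7a2, its widely expressed partner, had a median of 370 CPM. Ndufa4l2, a relative of Ndufa4, was at most 7.82 CPM, in the collagen gate of the tumor library labelled WT. Cox7b2, Cox8b and Cox8c had 0 UMIs in every gate sum, which allows 3 UMIs per sum. The c-ring genes Atp5g1, Atp5g2 and Atp5g3 encode the same mature protein, and had medians of 343, 719 and 817 CPM.

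Mitochondrial and nuclear transcripts did not keep a fixed ratio. The summed UMIs of the 13 mitochondrial genes over those of the 94 nuclear genes were 1.68 and 1.49 in B cells of the spleen libraries labelled KO and WT, 1.44 and 1.46 in spleen macrophages, and 1.08 and 1.19 in marrow stem and progenitor cells. They were 0.578 and 0.558 in granulocyte-monocyte progenitors, and 0.445 and 0.563 in the keratin gate of the tumor. Mature neutrophils of the marrow had ratios of 0.446 (KO) and 0.709 (WT), those of the spleen 0.527 (KO) and 0.670 (WT), and those of the tumor 0.978 (KO) and 1.47 (WT). The collagen gate, at 1.39 labelled KO and 1.78 labelled WT, included the highest ratio of all. Barcodes over 10% mitochondrial UMIs had been left out, which limits the ratio from above: this removed 29.9% and 30.8% of the collagen gate's barcodes in the tumor libraries labelled KO and WT, and 1.08% and 1.71% of the mature neutrophils' there.

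**Figure D2:**
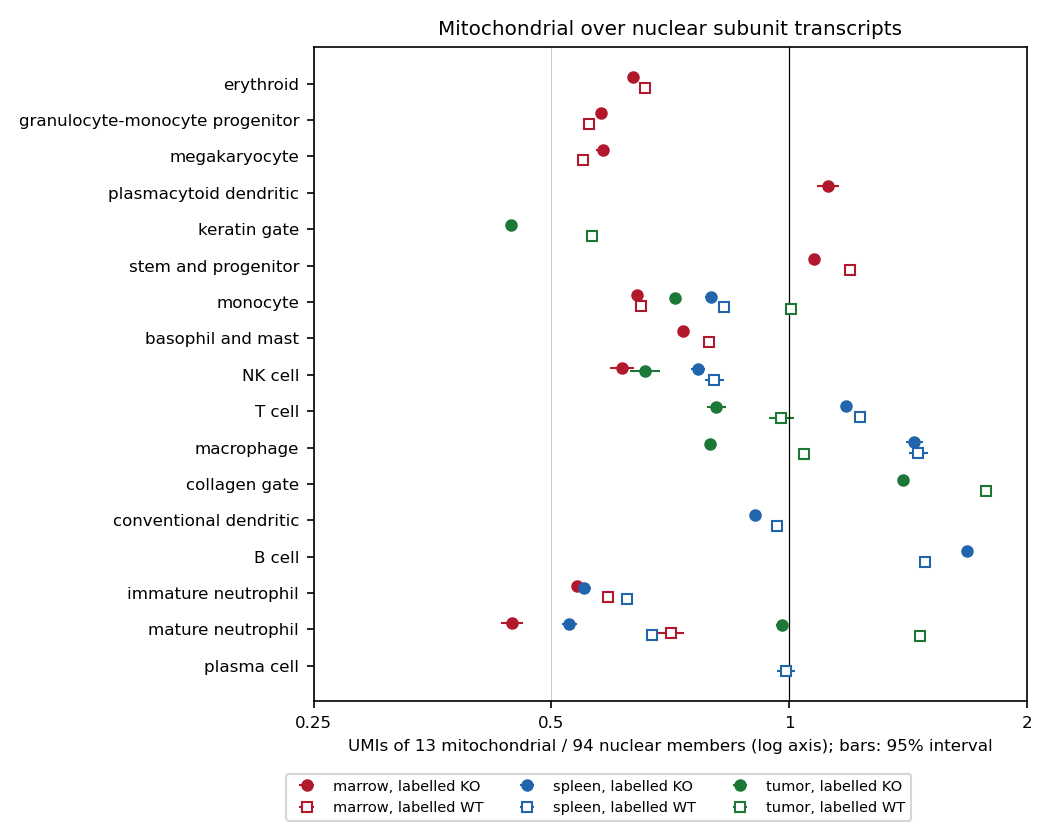
UMIs of the 13 mitochondrial members over UMIs of the 94 nuclear members (log x axis) by gated cell type (same order as the plot of nuclear sums), with filled circles for libraries labelled KO and open squares for libraries labelled WT, colour for tissue and bars for 95% intervals. The collagen gate labelled WT reaches 1.78 and B cells 1.68, whereas granulocyte-monocyte progenitors lie at 0.578 and 0.558.

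Mature neutrophils held a lower share of nuclear subunit transcripts than monocytes of the same library in 6 of 6 libraries. The nuclear sum in marrow was 8726 CPM in mature neutrophils against 30682 CPM in monocytes in the library labelled KO, and 10962 against 32952 CPM in that labelled WT. In spleen it was 7688 against 24265 CPM in the library labelled KO and 7122 against 23432 CPM in that labelled WT. In tumor it was 12111 against 21648 CPM in the library labelled KO and 12760 against 21147 CPM in that labelled WT. The ratios of mature neutrophils over monocytes were therefore 0.28 in marrow labelled KO and 0.33 in marrow labelled WT. They were 0.32 (KO) and 0.30 (WT) in spleen, and 0.56 (KO) and 0.60 (WT) in tumor. The marrow ratios depended on the gate: without the limit on progenitor markers, described with the marrow stages, they were 0.391 (KO) and 0.535 (WT). With at most 1 immature neutrophil marker, at 226 barcodes labelled KO and 42 labelled WT, they were 0.309 and 0.536, so the WT marrow value then lay near that of tumor. In single barcodes with at least 1000 UMIs, the nuclear members took a median of 0.736% of UMIs in spleen mature neutrophils of the library labelled KO (quartiles 0.581% and 0.922%), against 2.20% in monocytes (quartiles 1.83% and 2.53%). CPM is a share of UMIs, on which fewer subunit transcripts and more of other transcripts cannot be told apart. The monocyte gates of spleen held 121 and 133 barcodes in the libraries labelled KO and WT.

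All genes were also lower on balance, and the counts of members are read against that background. The minimum is set on both gates together, so members and other genes near 0 in mature neutrophils can pass it through the monocyte gate. At least 1.5-fold lower, of the members with 100 or more UMIs over both gates, were 82 of 84 in marrow labelled KO (67.4% of all genes tested), 85 of 87 in marrow labelled WT (66.5%), 72 of 76 in spleen labelled KO (43.3%), 76 of 80 in spleen labelled WT (45.9%), 65 of 79 in tumor labelled KO (34.5%) and 62 of 78 in tumor labelled WT (25%). No nuclear member was 1.5-fold higher in any of the 6 libraries, where 12.9%, 11.5%, 24.9%, 23.4%, 13.7% and 12.1% of all genes tested were, in the same order. The median log2 ratio of the members against that of all genes was -1.98 against -1.36 (KO) and -1.70 against -1.17 (WT) in marrow. It was -2.10 against -0.34 and -2.07 against -0.43 in spleen. In tumor the medians were -0.92 against -0.33 and -0.79 against -0.15. Cytosolic ribosomal protein genes were lower as well, with medians of -2.62 and -2.66 in the spleen libraries labelled KO and WT. The 10 mature neutrophil markers alone summed to 328377 and 291923 CPM of the gate in the marrow libraries labelled KO and WT, 171396 and 194038 CPM in spleen and 63844 and 69670 CPM in tumor, and the part of this in the ratios was not tested.

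**Figure D3:**
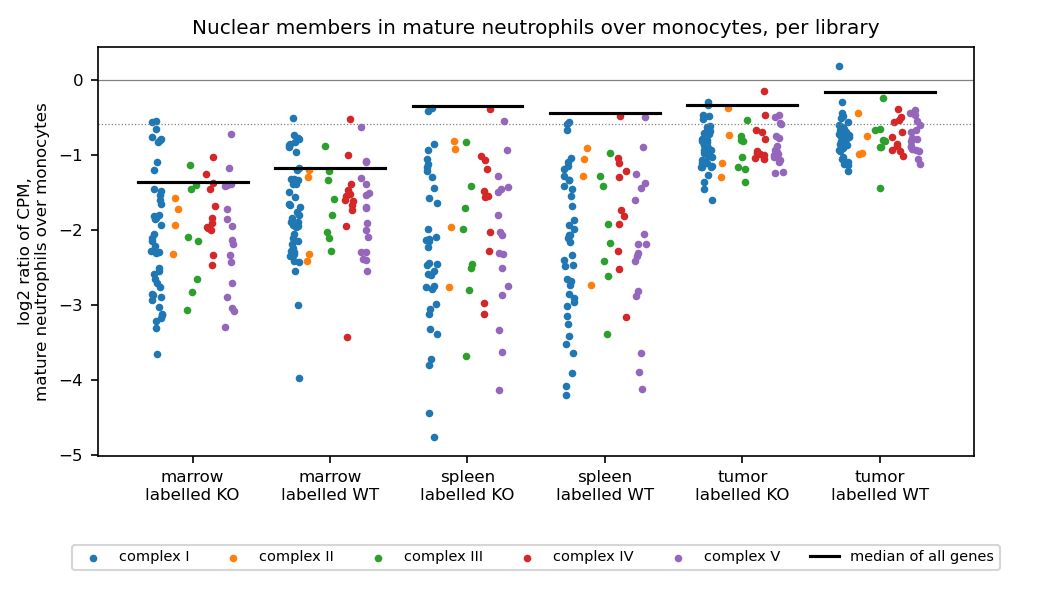
Log2 ratio of CPM in mature neutrophils over monocytes (y axis) for each nuclear member with at least 100 UMIs over both gates, per library (x axis) and coloured by complex, with the median of all genes as a black bar and 1.5-fold lower as a dotted line. Medians of the members lie at -2.10 and -2.07 in spleen and at -0.92 and -0.79 in tumor.

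All complexes took part. In spleen, complex I was at 0.28 and 0.27 of the monocyte level in the libraries labelled KO and WT, complex III at 0.28 and 0.30, complex V at 0.29 and 0.27, complex II at 0.36 and 0.42, and complex IV at 0.40 and 0.38. Of 76 members that passed the minimum in all 6 libraries, 76 were lower in 6 of 6 and 56 were at least 1.5-fold lower in 6 of 6. The share of all genes lower in 6 of 6 was not taken, so these joint counts have no background of their own. Another 7 members passed the minimum in none: Cox4i2, Cox6a2, Cox7a1, Cox7b2, Cox8b, Cox8c and Ndufa4l2.

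The depth of the difference varied widely between members. Ndufc2, an accessory subunit of complex I, was at 8.0 CPM in spleen mature neutrophils against 244 CPM in monocytes in the library labelled KO, and at 10.5 against 211 CPM in that labelled WT, with log2 ratios of -4.76 and -4.20. Ndufa5, of the same complex, had log2 ratios of -4.44 and -4.09 there. Atp5g1 was at 17.0 CPM in mature neutrophils against 316 CPM in monocytes in the spleen library labelled KO, and at 18.9 against 347 CPM in that labelled WT. Atp5g2 was at 47.7 against 602 CPM and 45.9 against 694 CPM. At the other end, Cox8a, the widely expressed form of subunit VIII, was at 837 against 1087 CPM in the spleen library labelled KO and 745 against 1039 CPM in that labelled WT, with log2 ratios of -0.38 and -0.48. Atp5l, the g subunit of complex V, Ndufb9 and Ndufa7 were close to it, with median log2 ratios over the 6 libraries of -0.51, -0.53 and -0.55, against -3.10 for Ndufc2 and -2.85 for Atp5g2. In spleen, the leading nuclear subunit transcript of mature neutrophils was therefore Cox8a, ahead of Cox4i1 at 356 CPM in both libraries, whereas monocytes held Cox8a and Cox4i1 at 1087 and 1040 CPM in the library labelled KO. The tumor libraries gave other extremes, among them Ndufb3, at 29.2 against 90.5 CPM in the library labelled KO, and Uqcrfs1, the Rieske iron-sulfur protein of complex III, at 57.3 against 157 CPM in that labelled WT.

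The 13 mitochondrial genes were lower in mature neutrophils than in monocytes in marrow and spleen, and less so in tumor. Their sum had ratios of 0.20 and 0.36 in the marrow libraries labelled KO and WT, 0.21 and 0.25 in spleen, and 0.76 and 0.88 in tumor. At least 1.5-fold lower were 13 of 13 genes in both marrow libraries, 12 of 12 that passed the minimum in spleen labelled KO and 13 of 13 in spleen labelled WT, and 1 and 0 of 13 in tumor. In the spleen library labelled KO, mt-Co1, the catalytic core of complex IV, was at 1122 CPM in mature neutrophils against 4381 CPM in monocytes. There mt-Nd1, of complex I, was at 114 against 684 CPM, mt-Cytb at 405 against 2145 CPM and mt-Atp6 at 414 against 1886 CPM. The remaining genes, mt-Atp8, mt-Co2, mt-Co3, mt-Nd2, mt-Nd3, mt-Nd4, mt-Nd4l, mt-Nd5 and mt-Nd6, ranged in the same cells between 9.74 CPM for mt-Nd6 and 660 CPM for mt-Co3.

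Among other mitochondrial genes that passed the minimum, larger shares were lower than among all genes tested. For glycolysis genes the share that were lower was not larger. In spleen mature neutrophils over monocytes, 11 of 12 tricarboxylic acid cycle genes in the library labelled KO and 14 of 14 in that labelled WT were at least 1.5-fold lower, as were 26 of 29 and 43 of 46 mitochondrial ribosomal protein genes and 9 of 11 and 11 of 12 genes of protein import. In the library labelled WT, Idh2, which makes NADPH and 2-oxoglutarate, was at 2.30 CPM against 87.5 CPM, Cycs, cytochrome c, at 28.6 against 249 CPM, and Hspd1, the matrix chaperonin, at 8.72 against 115 CPM. Of the glycolysis genes, 3 of 13 were higher and 5 lower in the library labelled KO, and 5 of 16 were higher and 5 lower in that labelled WT. Of all genes, 24.9% were higher and 43.3% lower in the library labelled KO, and 23.4% and 45.9% in that labelled WT. Because the minimum is set on both gates together, a gene hardly detected in mature neutrophils can pass it through the monocyte gate. These shares therefore describe the genes that passed, and no conclusion is drawn from such short lists. Slc16a3, a lactate exporter, was at 385 CPM in mature neutrophils against 24.8 CPM in monocytes of the spleen library labelled WT, and Slc2a1, a glucose transporter, at 180 against 29.4 CPM. Both are from the higher genes of the glycolysis list and do not stand for the list, whose lower genes are not named here.

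Within marrow, with the main gates, the nuclear sum was lower in immature neutrophils than in granulocyte-monocyte progenitors and lower again in mature neutrophils. It was 37112, 18518 and 8726 CPM in progenitors, immature and mature neutrophils of the library labelled KO, and 37606, 21422 and 10962 CPM in the library labelled WT. At least 1.5-fold lower than in progenitors were 74 of 87 members in immature neutrophils labelled KO (53.3% of all genes tested) and 67 of 88 in those labelled WT (53%). In mature neutrophils these counts were 86 of 87 (63.6%) and 86 of 88 (61.5%). The mature gate admitted fewer than 3 of 7 progenitor markers, a limit set after the comparisons had been seen. These markers still summed to 1085 and 1982 CPM in the mature gate of the marrow libraries labelled KO and WT, against 10.8 and 49.5 CPM in spleen. Elane, a progenitor marker, was at 8852 and 10587 CPM in the immature gate of these marrow libraries. The mature level depended on the gate, as given with the monocyte ratios. With at most 1 immature neutrophil marker, the mitochondrial log2 ratio over progenitors labelled WT was -0.71 in mature neutrophils, against -0.73 in immature ones. Labelled KO it was -2.04 against -1.11.

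As a share of UMIs, subunit transcripts were higher in tumor mature neutrophils than in those of the spleen. The nuclear sum was 1.58 times the spleen level in the libraries labelled KO (95% interval 1.55 to 1.60) and 1.79 times in those labelled WT (1.76 to 1.82). Nuclear subunit UMIs per barcode lay nearer each other, at 20.4 in tumor against 20.1 in spleen labelled KO and 21.3 against 18.5 labelled WT. The mitochondrial sum was 2.92 and 3.92 times the spleen level, and 13 of 13 mitochondrial genes were at least 1.5-fold higher in both genotypes. Of the nuclear members, 46 of 76 were at least 1.5-fold higher in the libraries labelled KO (36% of all genes tested) and 51 of 78 in those labelled WT (41.2%), with 2 and 0 lower (33.5% and 29.7%). The medians were 0.96 and 1.07, against 0.01 and 0.23 for all genes. The minimum is set on both gates together, so members and other genes near 0 in spleen can pass it through the tumor gate. Tissue and library cannot be told apart here.

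**Figure D4:**
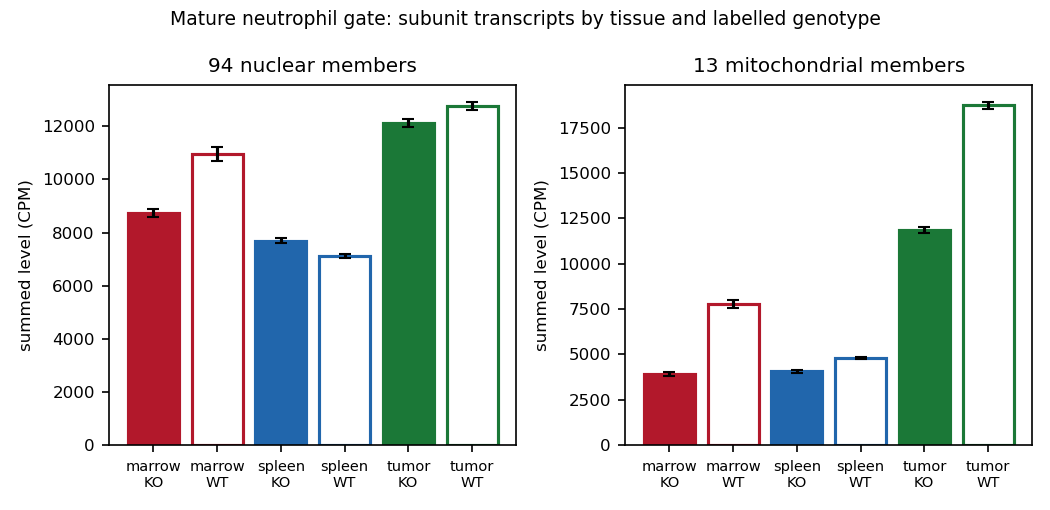
Summed level (CPM, y axis) of the 94 nuclear members on the left and of the 13 mitochondrial members on the right in mature neutrophils, per library (x axis), with filled bars for libraries labelled KO, open bars for libraries labelled WT and error bars for 95% Poisson intervals. The tumor libraries stand at 12111 and 12760 CPM for nuclear members, and at 11850 and 18725 CPM for mitochondrial members.

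By complex, the tumor level was 1.81 and 2.06 times the spleen level for complex V in the libraries labelled KO and WT, 1.62 and 1.89 times for complex I, 1.61 and 1.77 times for complex III, 1.35 and 1.54 times for complex IV, and 1.21 and 1.09 times for complex II. Ndufa5 was at 63.6 CPM in tumor against 3.48 CPM in spleen in the libraries labelled KO, and at 61.7 against 4.44 CPM in those labelled WT. At such spleen levels it passed the minimum only together with the tumor gate. Atp5g1 was at 171 against 17.0 CPM and 160 against 18.9 CPM, and Atp5g2 at 400 against 47.7 CPM and 355 against 45.9 CPM. Uqcrb, a small subunit of complex III, was at 218 against 26.3 CPM in the libraries labelled WT. Lower in tumor in the libraries labelled KO were Ndufa3, at 60.8 against 175 CPM, and Ndufb1-ps, annotated in GENCODE as a long noncoding RNA despite its subunit name, at 68.2 against 127 CPM. In the libraries labelled WT, Ndufa3 was at 61.2 CPM in tumor against 72.5 CPM in spleen.

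Genes around the chain were compared between tumor and spleen mature neutrophils too, among those that passed the minimum. At least 1.5-fold higher in tumor mature neutrophils were 12 of 16 glycolysis genes in the libraries labelled KO and 9 of 16 in those labelled WT, 8 of 12 and 10 of 13 import genes, 4 of 4 and 6 of 6 genes of mitochondrial DNA expression, and 72 of 80 and 74 of 81 cytosolic ribosomal protein genes. The same held for 36% of all genes tested in the libraries labelled KO and 41.2% in those labelled WT. The 4 and 6 genes are those of their list that passed the minimum, which is set on both gates together. A gene near 0 in spleen can pass it through the tumor gate, so no conclusion is drawn from these short lists. Hspd1 was at 198 CPM in tumor against 10.8 CPM in spleen in the libraries labelled KO, and at 231 against 8.72 CPM in those labelled WT. Slc25a4, an ADP/ATP carrier, was at 49.2 against 1.74 CPM and 62.3 against 2.63 CPM, and Myc, a growth regulator, at 66.4 against 4.87 CPM and 96.5 against 3.29 CPM. Median UMIs per barcode were 1407 and 1278 in tumor, against 2348 and 2218 in spleen. The 10 macrophage markers summed to 1137 and 1211 CPM in the tumor gate, against 96.0 and 109 CPM in spleen, with Spic at 0 in both tumor libraries. The keratin-gate markers summed to 262 and 280 CPM in tumor against 4.52 and 2.96 CPM in spleen, where Krt8, Krt18, Krt19, Cldn4 and Krt14 were at 0. The part of these values in the result was not tested.

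Other cell types of the tumor differed less from their spleen counterparts. The nuclear sum was 1.37 and 1.32 times the spleen level in macrophages labelled KO and WT, 1.21 and 1.33 times in T cells, and 0.89 and 0.90 times in monocytes. The mitochondrial sum was 0.75 and 0.95 times in macrophages, 0.83 and 1.06 times in T cells, and 0.80 and 1.10 times in monocytes. At least 1.5-fold higher were 26 of 81 and 21 of 82 members in macrophages (27% and 24% of all genes tested), a share near the background in both.

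As a share of UMIs, nuclear members in spleen mature neutrophils were at 0.88 times the marrow level in the libraries labelled KO and 0.65 times in those labelled WT. With barcodes drawn to 1000 UMIs these ratios were 0.96 and 0.76. Nuclear subunit UMIs per barcode were 20.1 in spleen against 18.3 in marrow labelled KO, and 18.5 against 42.0 labelled WT. The mitochondrial sum was 1.04 times the marrow level (95% interval 1.01 to 1.08) in the libraries labelled KO and 0.61 times in those labelled WT. Marrow and spleen had been enriched for different cells, so tissue and enrichment cannot be told apart. At least 1.5-fold lower were 22 of 62 members (10.9% of all genes tested) and 42 of 70 (14.5%). Without the limit on progenitor markers in the gate, these counts were 48 of 72 (18.0% of all genes tested) and 69 of 76 (23.4%), and the mitochondrial log2 ratio labelled KO turned to -0.55, against 0.059 with it. With at most 1 immature neutrophil marker the nuclear log2 ratio labelled WT was -1.24, against -0.62, and the mitochondrial one labelled KO was -0.31. With 1 more marker required the mitochondrial value labelled KO was -0.0080. The part of the progenitor markers, whose sums are given with the marrow stages, was not tested.

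Between the labelled genotypes, the nuclear sums lay near each other in most cell types. Over 20 pairs of libraries and gates with at least 100 barcodes on both sides, the ratio of the library labelled KO to that labelled WT was within 0.93 to 1.08 in 18. The exceptions were immature neutrophils of the marrow, at 0.86, and mature neutrophils of the marrow, at 0.80 (95% interval 0.77 to 0.82). In granulocyte-monocyte progenitors it was 0.987, in erythroid cells 1.003, in spleen T cells 1.05 and in tumor macrophages 1.02. Over the 20 pairs, 21 of 1609 member comparisons were at least 1.5-fold higher (2.58% of all gene comparisons) and 18 were lower (2.94%). Both were smaller shares than those of all gene comparisons. Without marrow mature neutrophils, whose own counts and background follow, the counts were 20 and 6. These 2 counts are given without a share of all genes and are not read as a result about the members.

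**Figure D5:**
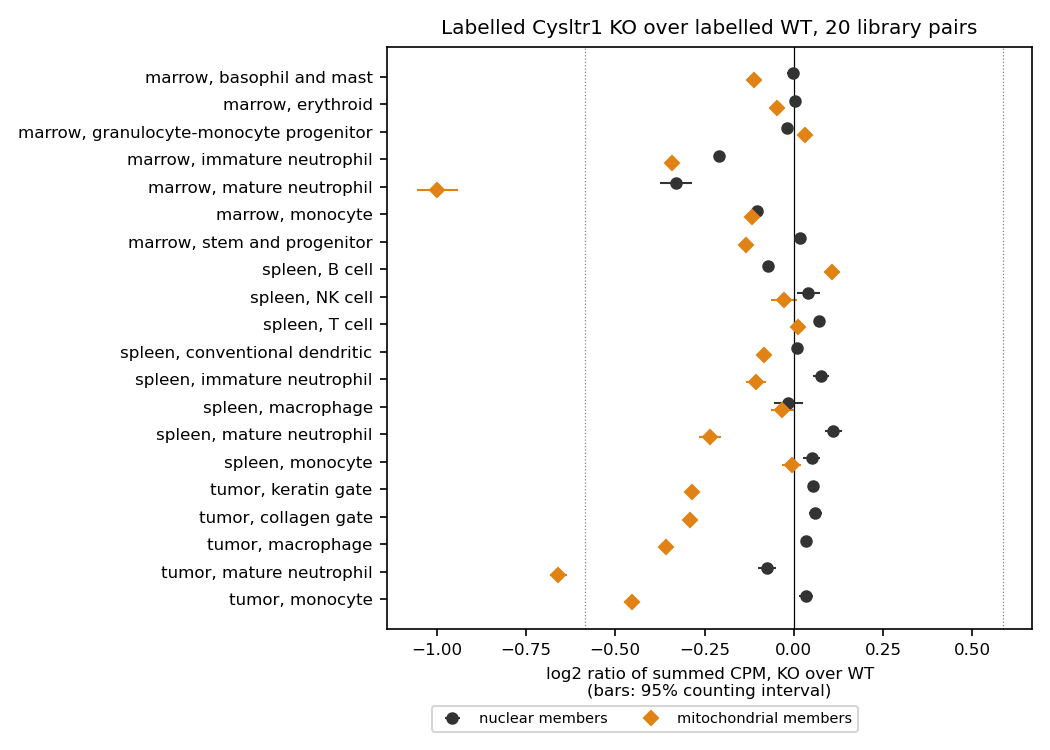
Log2 ratio of summed CPM in the library labelled KO over that labelled WT (x axis) for nuclear members (circles) and mitochondrial members (diamonds) in 20 pairs (y axis), with bars for 95% counting intervals and dotted lines at 1.5-fold. Nuclear sums lie near 0 except in marrow neutrophils, and mitochondrial sums lie below 0 in all 5 tumor gates.

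In marrow mature neutrophils, 12 of 55 members were at least 1.5-fold lower in the library labelled KO (11.2% of all genes tested) and 1 was higher (3.63%), with a median of -0.33 against 0.01 for all genes. This comparison rests on 630 barcodes in the library labelled KO and 152 in that labelled WT. It depended on how the gate was drawn: without the limit on progenitor markers, which was added after that result had been seen, 40 of 72 members were lower (22.0% of all genes tested with that gate) and the log2 ratio of the sums was -0.55, against -0.33 with it. With at most 1 immature neutrophil marker, which left 226 barcodes labelled KO and 42 labelled WT, that ratio was -0.90. The progenitor markers were at 1085 CPM in the library labelled KO against 1982 CPM in that labelled WT, median UMIs at 1947 against 3639, and the median of ribosomal protein genes at -0.82. Their part in the difference was not tested. The mitochondrial sum was 3892 against 7775 CPM, a ratio of 0.50, with 11 of the 11 genes that passed the minimum at least 1.5-fold lower. Atp5g1 was at 52.9 against 151 CPM, Uqcrb at 54.4 against 120 CPM and Cox5a, the subunit Va gene of complex IV, at 124 against 223 CPM.

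In the tumor, mitochondrial sums were lower in the library labelled KO in 5 of 5 gates, whereas nuclear sums were lower in mature neutrophils and slightly higher in the other 4. The mitochondrial ratio was 0.63 in mature neutrophils, 0.73 in monocytes, 0.78 in macrophages, and 0.82 in both the keratin and the collagen gate, beside nuclear ratios of 0.95, 1.02, 1.02, 1.04 and 1.04. With 1 more marker required, which left 49 and 134 barcodes labelled KO and WT in the collagen gate and 30 and 50 in the keratin gate, the mitochondrial log2 ratio turned to 0.014 in the collagen gate and was -0.06 in the keratin gate, and the nuclear log2 ratios turned to -0.15 and -0.041. mt-Atp8, of complex V, had the largest difference, with a median log2 ratio of -0.78 over the 5 gates, whereas mt-Atp6, read from the same transcript, had a median of -0.18. The counts of mitochondrial genes at least 1.5-fold lower were 10, 2, 1, 1 and 2 of 13 in the same order of gates, where 12.9%, 5.77%, 3.95%, 1.41% and 2.55% of all genes tested were lower. Barcodes over the mitochondrial limit had been 7.70% in the tumor library labelled KO and 11.7% in that labelled WT, and the part of this difference was not tested.

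Ndufa3 was the nuclear member past 1.5-fold in the most pairs between the labelled genotypes. It was higher in the library labelled KO in 19 of 20 pairs and at least 1.5-fold higher in 10, of which 8 were the 8 spleen pairs. Ndufa3 was picked by this count from these same data. How many of all genes were past 1.5-fold in as many pairs was not taken, so its counts have no background. By tissue, it was higher in 7 of 7 marrow pairs, 8 of 8 spleen pairs and 4 of 5 tumor pairs. In marrow and spleen, where Cysltr1 transcripts went against the labels, this direction follows the labels alone, and in the tumor pairs Ndufa3 was never 1.5-fold apart. In spleen T cells it was at 293 CPM in the library labelled KO against 153 CPM in that labelled WT, in B cells at 250 against 132 CPM, in monocytes at 335 against 150 CPM and in mature neutrophils at 175 against 72.5 CPM. In marrow granulocyte-monocyte progenitors it was at 232 against 177 CPM. In the tumor it was at 102 against 98.6 CPM in the keratin gate and at 60.8 against 61.2 CPM in mature neutrophils. The median log2 ratio was 0.95 over the spleen pairs, 0.38 over the marrow pairs and 0.04 over the tumor pairs. The gene lies on chromosome 7, 3617373 to 3620327, plus strand (mm10, GENCODE M21). Ndufb1-ps, Atp5md, Atp5k and Cox7c were also among the 5 highest members in spleen T cells and B cells, with log2 ratios of 0.36 to 0.62. Among mitochondrial members, mt-Nd3 of complex I was at least 1.5-fold higher in 6 of its 19 pairs, all of them spleen pairs, and lower in 2. Pairs of a tissue share their 2 libraries, so they are not independent of each other.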

How the data were processed

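The authors deposited UMI counts per gene and barcode for each of the 6 libraries, filtered to called cells. Per the submitters' processing notes these counts were made with Cell Ranger 6.0.0 on mm10, whereas the file headers name version 6.1.0. A 5′ and a 3′ kit both appear in the labels' protocols. Gene positions came from GENCODE M21 and promoters from RefSeq.

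Barcodes with at least 500 UMIs, at least 300 genes and at most 10% mitochondrial UMIs were kept. Barcodes were gated by marker genes, with thresholds set after the data had been seen, and a barcode that passed several of the 19 gates was left out, which stood in for a doublet caller. The limit on progenitor markers in mature neutrophils was added after the comparisons had been seen without it, and both versions are given. UMIs were summed per library and gate (at least 50 barcodes, 100 for KO over WT), and log2 ratios of CPM used a pseudocount of 1 CPM. Genes with at least 100 UMIs over both groups passed, and 1.5-fold counted as a difference. Intervals are exact Poisson or conditional binomial at 95% and cover counting error only. The statistics were tested on simulated data.

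Members and lists were chosen with earlier results of these data known. Named genes were the 13 mitochondrial members, the 5 highest and 5 lowest nuclear members of each main comparison, the most abundant member per complex, the isoform pairs and up to 4 genes per other list. Members named in marrow mature neutrophils for KO over WT, and mt-Nd3, were chosen after their values were seen. Alternatives covered filters, gates, scaling, the pseudocount and the fold. Python 3.11.15, numpy 2.4.6, scipy 1.17.1, pandas 2.3.3 and matplotlib 3.10.9 were used.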

Additional observations from a re-analysis of the deposited data

Results flagged for a closer look

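In 3 cell types the nuclear sum lay on opposite sides of equality in different tissues, a difference between tissues that was not tested. The log2 ratio of the library labelled KO over that labelled WT was -0.33 in mature neutrophils of the marrow, 0.11 in those of the spleen and -0.08 in those of the tumor. In immature neutrophils it was -0.21 in marrow and 0.08 in spleen. In monocytes it was -0.10 in marrow, 0.05 in spleen and 0.03 in tumor, and with 1 more marker required the spleen value turned to -0.0055. Median UMIs of immature neutrophils were 4704 labelled KO against 12022 labelled WT in marrow, and 15967 against 11211 in spleen. Those of monocytes were 6995 against 16090 in marrow and 9233 against 8534 in spleen. The spleen gate of immature neutrophils held 107 barcodes labelled KO. The part of depth in these ratios was not tested. Each log2 ratio rests on 1 library per genotype, and the Cysltr1 transcripts of the marrow and spleen libraries went against their labels.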

How the results depend on the processing

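No paired analysis was possible because there was 1 library per tissue and genotype and no replicate numbers. For the same reason no replicate could be left out. Over the values that an alternative could alter, summed nuclear ratios kept their sign in 383 of 392 and mitochondrial ratios in 332 of 346. Named members kept it in 1568 of 1603, and those past 1.5-fold in 594 of 596. Sizes were less stable. With barcodes drawn to 1000 UMIs, 36 of 46 nuclear and 39 of 46 mitochondrial ratios left the counting interval of the main value. With 1 more marker, 28 and 27 of 46 did. Shares in brackets, where given, are of all genes tested under the same setting. With barcodes drawn to 1000 UMIs, 33 of 39 members (26.2%) and 44 of 51 (29.3%) were lower in spleen mature neutrophils than in monocytes in the libraries labelled KO and WT. Higher in tumor than in spleen were 26 of 56 (30.004%) and 30 of 60 (29.0%), and lower in spleen than in marrow 9 of 45 (11.9%) and 19 of 50 (11.2%). Lower in marrow mature neutrophils labelled KO than WT were 2 of 21 (9.44%), and 41 of 1015 differed in the other 19 pairs, 23 higher (3.004%) and 18 lower (3.19%), against 26 of 1554. In that setting Ndufa8 was at 0.41 in spleen mature neutrophils over monocytes labelled WT and Ndufaf6 at 0.061 in spleen B cells labelled KO over WT, both the reverse of their main sign. The count lower in marrow mature neutrophils labelled KO than WT was 5 of 57 (7.26%) with 1 more marker, 27 of 77 (17.0%) with a minimum of 30 UMIs, 31 of 89 (31.0%) with no minimum, 2 of 55 (3.31%) at 2-fold and 40 of 72 (22.0%) with no limit on progenitor markers. That of the other 19 pairs was 17 of 1554 with a pseudocount of 10 CPM, 61 of 1702 with no minimum and 3 of 1554 at 2-fold. These counts of the other 19 pairs are given without a share of all genes and are not read as a result about the members. At 2-fold, 28 of 79 (15.3%) and 12 of 78 (9.41%) members were lower in tumor mature neutrophils than in monocytes, 45 of 87 (35.1%) and 34 of 88 (33.5%) in immature neutrophils than in progenitors, and 7 of 62 (5.24%) and 22 of 70 (6.81%) in spleen than in marrow mature neutrophils. The spleen over marrow counts were 36 of 90 (22.6%) labelled KO with no minimum, and 48 of 72 (18.0%) and 69 of 76 (23.4%) with no limit on progenitor markers, a setting added after seeing the data. Ndufa3 was at least 1.5-fold higher in 8 pairs with drawn barcodes, 9 with no limit on progenitor markers and 3 at 2-fold, against 10. The cause of these shifts was not tested.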
